A study of Bos taurus with 10 samples.

Results

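Transcripts of 10 enzymes of glycolysis and lactate production were followed in epithelial cells of the bovine oviductal isthmus, in 5 libraries from pregnant and 5 from cyclic heifers. The genes were taken by name: HK1, HK2, GPI, PFKL, PFKP, ALDOA, PGK1, ENO1, LDHA and LDHB. Rows of the deposited table carried 9 of these 10 names, out of 24596 features. The remaining gene, ENO1, stood under ENSBTAG00000013411, whose description in the table names ENO1, and it is reported apart under that identifier at its first mention. There were 0 numbered copies of these genes in the table.

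Pregnant heifers had received 50 presumptive zygotes made in vitro, and cyclic heifers a sham transfer in place of embryos. Both groups were sampled for oviduct epithelium, and total RNA was sequenced after poly(A) selection. The comparison asked whether embryos in the oviduct changed the transcriptome of the cells lining it. The labels used here give no age or breed and do not state whether libraries came from separate animals, so n counts libraries, and p-values measure their spread, which may be technical. Library totals were 17 to 26.1 M reads in pregnant and 9.71 to 18.8 M reads in cyclic heifers. The adhesion molecule EPCAM averaged 330 ± 15.4 RPKM in pregnant and 365 ± 39.1 RPKM in cyclic heifers, and PAX8, a transcription factor of oviduct secretory cells, 88.1 ± 5.99 and 87.5 ± 14.9 RPKM (SD, n = 5 each). Both genes belong to a fixed list of secretory epithelium markers. The other 5 genes of that list had lower means in pregnant heifers and are given with the cell type markers. RPKM is the number of reads scaled to gene length and library total.

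Glycolysis splits glucose into pyruvate in the cytosol. Hexokinases and phosphofructokinases catalyse its largely irreversible early steps, and lactate dehydrogenase converts pyruvate to lactate and back. Oviduct fluid carries pyruvate and lactate, which early mammalian embryos use as energy substrates before they take up much glucose.

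Expression of none of the 10 genes passed the test between pregnant and cyclic heifers (adjusted p under 0.05, limma-trend over 12834 features, of which 0% passed). Means of HK1, GPI, PFKL, PFKP, ALDOA and ENO1 were lower in pregnant heifers, with log2 differences of -0.35 to -0.76. PGK1, LDHA, HK2 and LDHB lay nearer 0, at -0.09, 0.00, 0.02 and 0.13. Fold changes here are pregnant minus cyclic on the log2(RPKM + 1) scale, which understates changes of low genes. The difference was below 0 for 8 of the 10 genes, against 49.1% of all features. These 8 include PGK1 and also LDHA, whose difference rounds to 0.00. The median was -0.36, against 0.008 over all features. At an unadjusted p under 0.05, 4 genes lay lower in pregnant heifers (HK1, GPI, PFKP and ENO1), where 11.9% of all features did, and 0 lay higher, where 15.7% did, so that 27.5% of all features passed in either direction. The groups overlapped for all 10 genes, as they did for all but 6.96% of features. These are bulk samples, in which fewer cells of a type and less RNA per cell cannot be told apart.

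**Figure D1:**
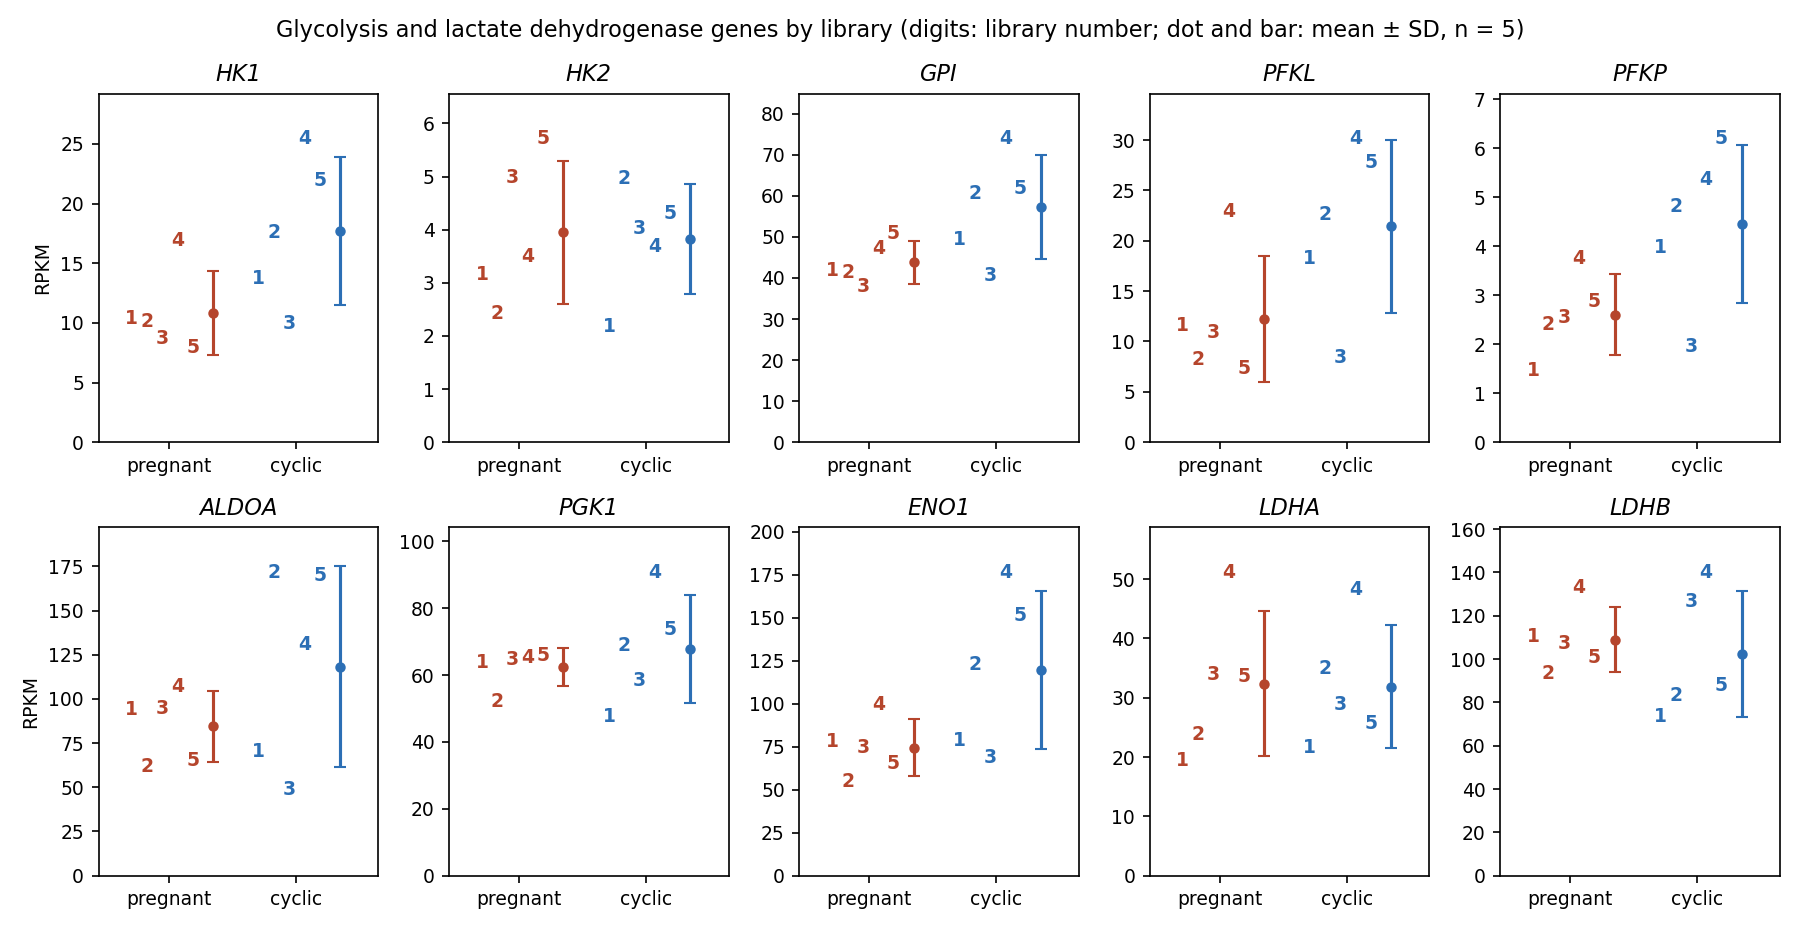
RPKM of each gene in the pregnant libraries (left in each panel) and the cyclic libraries (right), with digits for library numbers and a dot with a bar for the mean ± SD of 5 libraries. Cyclic library 3 lies at the level of the pregnant libraries for HK1, PFKL and ENO1, and pregnant library 4 is the highest pregnant library for 7 of the 10 genes.

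Hexokinases trap glucose in the cell as glucose 6-phosphate. HK1, the form found in most tissues, stood at 10.4, 10.1, 8.70, 16.9 and 7.95 RPKM in pregnant libraries 1 to 5, against 13.7, 17.6, 9.98, 25.4 and 21.9 RPKM in cyclic libraries 1 to 5. Pregnant libraries 1, 2, 3 and 5 lay below cyclic libraries 1, 2, 4 and 5, and pregnant libraries 3 and 5 also below cyclic library 3. Pregnant library 4 lay among the cyclic values. The log2 difference was -0.64 (SE 0.25, 95% interval -1.19 to -0.09; limma-trend adjusted p = 0.136), the smallest adjusted p of the 10 genes. HK2, an inducible hexokinase prominent in muscle and in fast-growing cells, stood at 3.17, 2.43, 4.97, 3.49 and 5.71 RPKM in pregnant libraries, against 2.18, 4.97, 4.03, 3.69 and 4.30 RPKM in cyclic libraries. The groups of HK2 covered each other nearly fully, with a log2 difference of 0.02 (interval -0.45 to 0.50; limma-trend adjusted p = 0.956).

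GPI interconverts glucose 6-phosphate and fructose 6-phosphate. It stood at 41.8, 41.3, 37.8, 47.2 and 50.8 RPKM in pregnant libraries, against 49.4, 60.6, 40.7, 73.9 and 61.8 RPKM in cyclic libraries. Pregnant libraries 1 to 4 lay below cyclic libraries 1, 2, 4 and 5, and pregnant library 3 also below cyclic library 3. Pregnant library 5 lay above cyclic libraries 1 and 3. The log2 difference was -0.36 (SE 0.16, interval -0.70 to -0.01; limma-trend adjusted p = 0.168).

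Phosphofructokinase commits the sugar to glycolysis, and its liver (PFKL), platelet (PFKP) and muscle (PFKM) subunits are encoded by separate genes. PFKL stood at 11.6, 8.23, 10.9, 22.9 and 7.35 RPKM in pregnant libraries, against 18.2, 22.6, 8.46, 30.1 and 27.8 RPKM in cyclic libraries. Pregnant library 4 stood far above the other pregnant libraries, and cyclic library 3 lay between pregnant libraries 2 and 3. The log2 difference, -0.76, was the largest in size of the 10 genes and also the least precise (SE 0.35, interval -1.52 to 0.00; limma-trend adjusted p = 0.183). PFKP was the lowest gene of the set in pregnant heifers, at 1.47, 2.40, 2.54, 3.75 and 2.86 RPKM, against 3.98, 4.81, 1.95, 5.36 and 6.19 RPKM in cyclic libraries. All 5 pregnant libraries lay below the 4 cyclic libraries other than cyclic library 3. The log2 difference was -0.57 (SE 0.25, interval -1.11 to -0.03; limma-trend adjusted p = 0.165).

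Aldolase A cleaves fructose 1,6-bisphosphate into triose phosphates. ALDOA stood at 94.3, 61.7, 94.8, 107 and 65.1 RPKM in pregnant libraries, against 70.5, 172, 48.6, 131 and 170 RPKM in cyclic libraries. The cyclic libraries formed a low pair (1 and 3) and a high set (2, 4 and 5), and every pregnant library lay between them or within the low pair's range. The log2 difference of -0.35 had a wide interval (-1.09 to 0.39; limma-trend adjusted p = 0.515). PGK1, which makes ATP from 1,3-bisphosphoglycerate, was the steadiest of the genes in pregnant heifers, with a coefficient of variation of 9.2% there and 23.9% in cyclic heifers. It stood at 63.7, 52.2, 64.7, 65.4 and 65.9 RPKM in pregnant libraries, against 47.6, 68.9, 58.5, 90.7 and 73.7 RPKM in cyclic libraries (log2 difference -0.09, interval -0.44 to 0.26).

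Enolase 1 converts 2-phosphoglycerate to phosphoenolpyruvate. Its row, ENSBTAG00000013411, stood at 78.1, 54.8, 74.4, 99.3 and 65.0 RPKM in pregnant libraries, against 78.6, 123, 69.0, 176 and 151 RPKM in cyclic libraries. Cyclic libraries 1 and 3 lay within the pregnant range, and cyclic libraries 2, 4 and 5 above every pregnant library. The log2 difference of ENO1 was -0.62 (SE 0.26, interval -1.18 to -0.05; limma-trend adjusted p = 0.157).

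Lactate dehydrogenase is assembled from the muscle-type subunit LDHA and the heart-type subunit LDHB, of which LDHB is known to favour oxidation of lactate to pyruvate. LDHA stood at 19.4, 23.7, 34.0, 51.1 and 33.6 RPKM in pregnant libraries, against 21.5, 34.9, 28.9, 48.3 and 25.7 RPKM in cyclic libraries. The lowest value of each group was in library 1 and the highest in library 4, and the groups overlapped over nearly their whole range. The log2 difference was 0.00 (SE 0.26), with an interval of -0.58 to 0.58 that leaves room for a change of either sign. LDHB stood at 111, 93.5, 107, 133 and 100.8 RPKM in pregnant libraries, against 73.5, 83.3, 127, 140 and 87.9 RPKM in cyclic libraries. Cyclic library 3, the lowest cyclic library for HK1, GPI, PFKL, PFKP, ALDOA and ENO1, was the second highest cyclic library for LDHB. The log2 difference of LDHB was 0.13 (SE 0.18, interval -0.28 to 0.53; limma-trend adjusted p = 0.685).

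**Figure D2:**
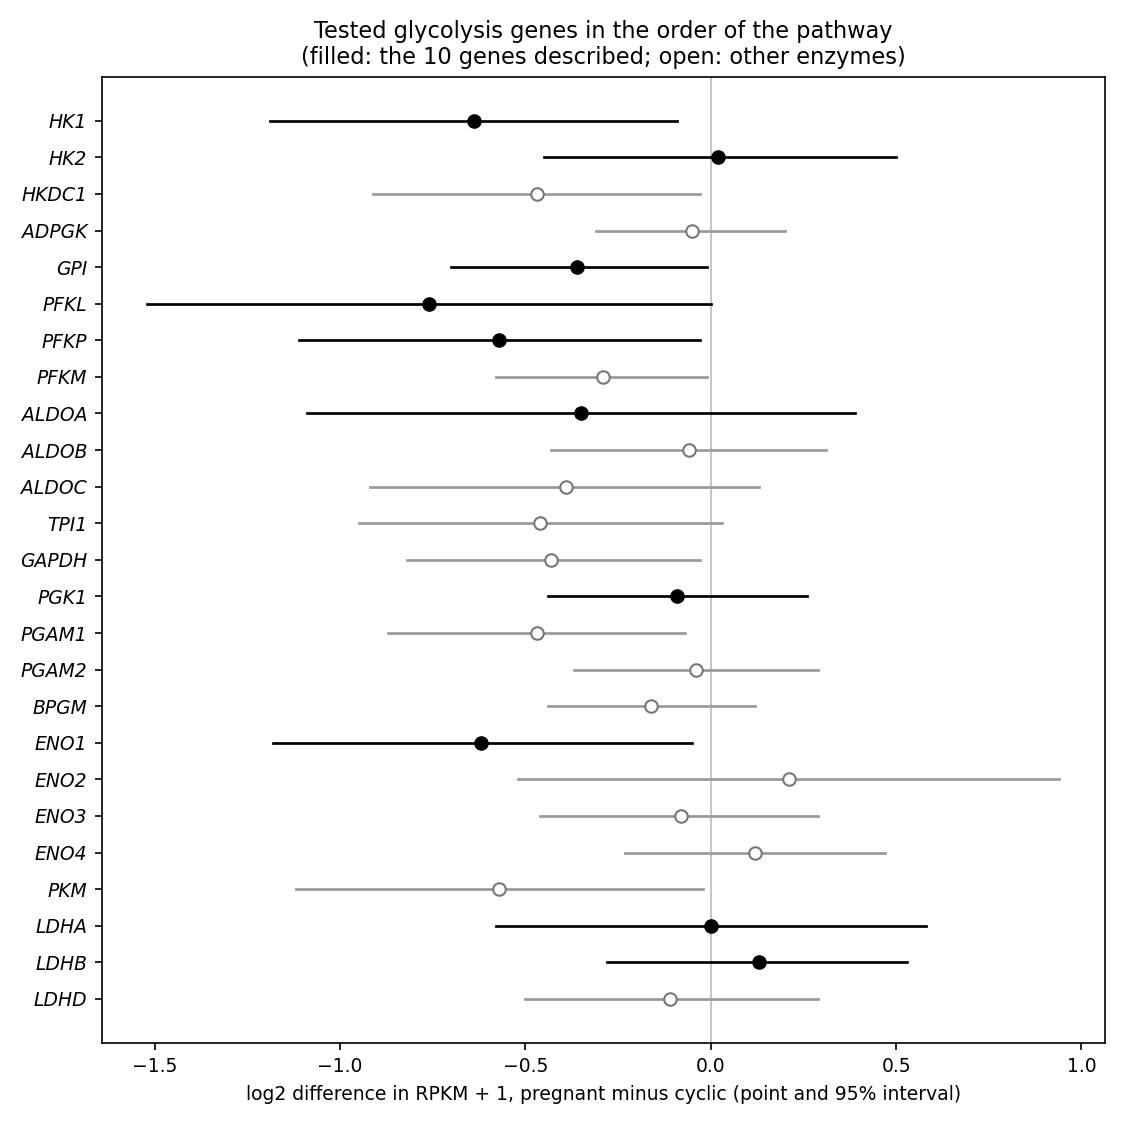
Log2 difference in RPKM + 1, pregnant minus cyclic, with 95% intervals, for tested glycolysis genes from hexokinase (top) to lactate dehydrogenase (bottom). Points from HK1 to PKM lie mostly left of 0, while LDHA and LDHB lie at 0.00 and 0.13. No gene passed the adjusted test.

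The other enzymes of the pathway were read from a fixed list with 16 tested genes. None passed the adjusted test, 14 of the 16 had a log2 difference below 0 (median -0.23), and 6 were lower and 0 higher at an unadjusted p under 0.05. Over all features 49.1% lay below 0, 11.9% were lower and 15.7% higher by the same measures, which also apply to the pathways described after it. GAPDH, found under G3PDH with GAPDH in its description, averaged 285 ± 34.2 RPKM in pregnant and 393 ± 109 RPKM in cyclic heifers (SD, n = 5 each; log2 difference -0.43). A row named GAPDH was listed at 0 in all 10 libraries. PKM, the pyruvate kinase of most tissues and named PKM2 in the table, averaged 51.2 ± 10.8 and 80.1 ± 31.2 RPKM (log2 difference -0.57). TPI1, which interconverts the triose phosphates, differed by -0.46 and the phosphoglycerate mutase PGAM1 by -0.47. Whether the steps from hexokinase to pyruvate kinase differed from lactate dehydrogenase in their response was not tested.

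Several of the genes varied together from library to library. After the mean of each group was removed, HK1 and PFKL correlated at r = 0.94 over 10 libraries, HK1 and ENO1 at 0.89, PFKL and ENO1 at 0.89 and ALDOA and ENO1 at 0.88. These are the 4 highest of all pairs, and others were looser, such as PFKP and PGK1 (0.47) and PFKL and PGK1 (0.53). HK2 was at -0.09 with HK1 and -0.05 with PFKL but 0.58 with PGK1. LDHB was at 0.28 with HK1, 0.15 with PFKL and -0.03 with ALDOA but 0.58 with PGK1. LDHA was at 0.53 with PFKP, 0.63 with PGK1 and 0.62 with LDHB. All these points share the same 10 libraries and their scaling, so the correlations describe these libraries. Averaged over the 10 genes on the log2 scale centred on all libraries, pregnant libraries 1 to 5 stood at -0.26, -0.43, -0.14, 0.23 and -0.21, against -0.21, 0.33, -0.31, 0.60 and 0.41 for cyclic libraries 1 to 5. Pregnant library 4 thus lay among the cyclic libraries, and cyclic libraries 1 and 3 among the pregnant ones.

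**Figure D3:**
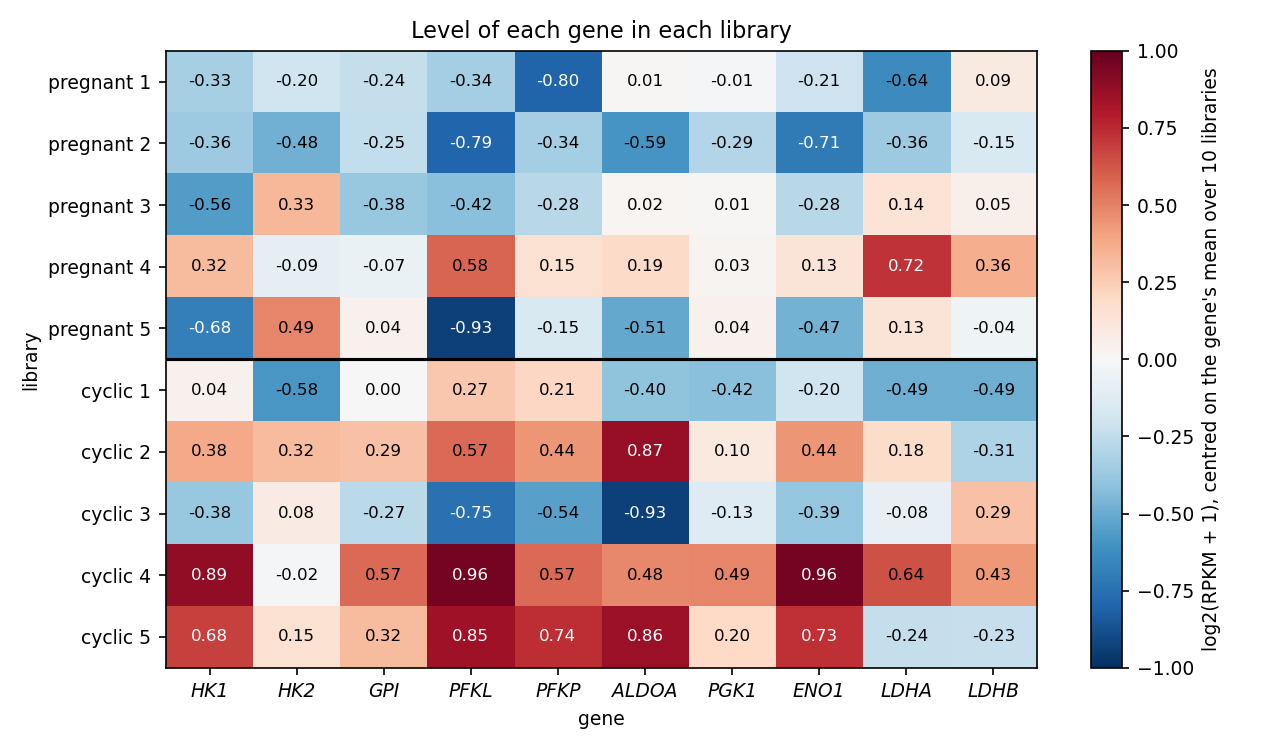
Log2(RPKM + 1) of each gene in each library, centred on the gene's mean over 10 libraries, with pregnant libraries above the line and cyclic libraries below it. Cyclic libraries 4 and 5 are high for HK1, PFKL and ENO1 (0.68 to 0.96), and cyclic library 3 is low for PFKL and ALDOA (-0.75 and -0.93) but not for LDHB (0.29).

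Calls among the 10 genes depended on cyclic library 3. Without it, 5 of the 10 genes (HK1, GPI, PFKL, PFKP and ENO1) were lower in pregnant heifers past an adjusted p of 0.05, where 8.02% of all features were lower and 9.23% higher. Of the 16 other glycolysis enzymes, 2 were then called lower. The log2 differences then were -0.82, -0.47, -1.04, -0.77 and -0.79, with limma-trend adjusted p-values of 0.0344 to 0.0479. The same 5 genes were called when pregnant library 4 was left out as well, where 13.6% of features were lower and 14.3% higher, with a log2 difference of -1.28 for PFKL. Of the 16 other enzymes, 6 were then called lower. Without pregnant library 4 alone, 0 of the 10 genes were called, where 0.265% of features were lower and 0.171% higher. Sample array weights, which gave cyclic library 3 the lowest weight of all libraries (0.313), called these 5 genes and ALDOA lower, where 18.3% of features were lower and 19% higher. That fit also left out the limma trend, and the part of each change was not tested. Both libraries stood apart from their groups over the whole transcriptome, toward the other group on the first principal component. Cyclic library 3 was at 10.5, against -55.7 to -10.6 for the other cyclic libraries. Pregnant library 4 was at -6.47, against 21.6 to 29.3 for the other pregnant libraries. Cyclic library 4 stood apart too, at -55.7, against -25.7 to 10.5 for the other cyclic libraries, with the lowest total (9.71 M reads) and the second lowest array weight (0.37). Without it, 0 of the 10 genes were called. As cyclic library 3 and pregnant library 4 each lay toward the other group, leaving them out widens the difference between the groups. The calls without them are thus no independent support for lower values in pregnant heifers.

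**Figure D4:**
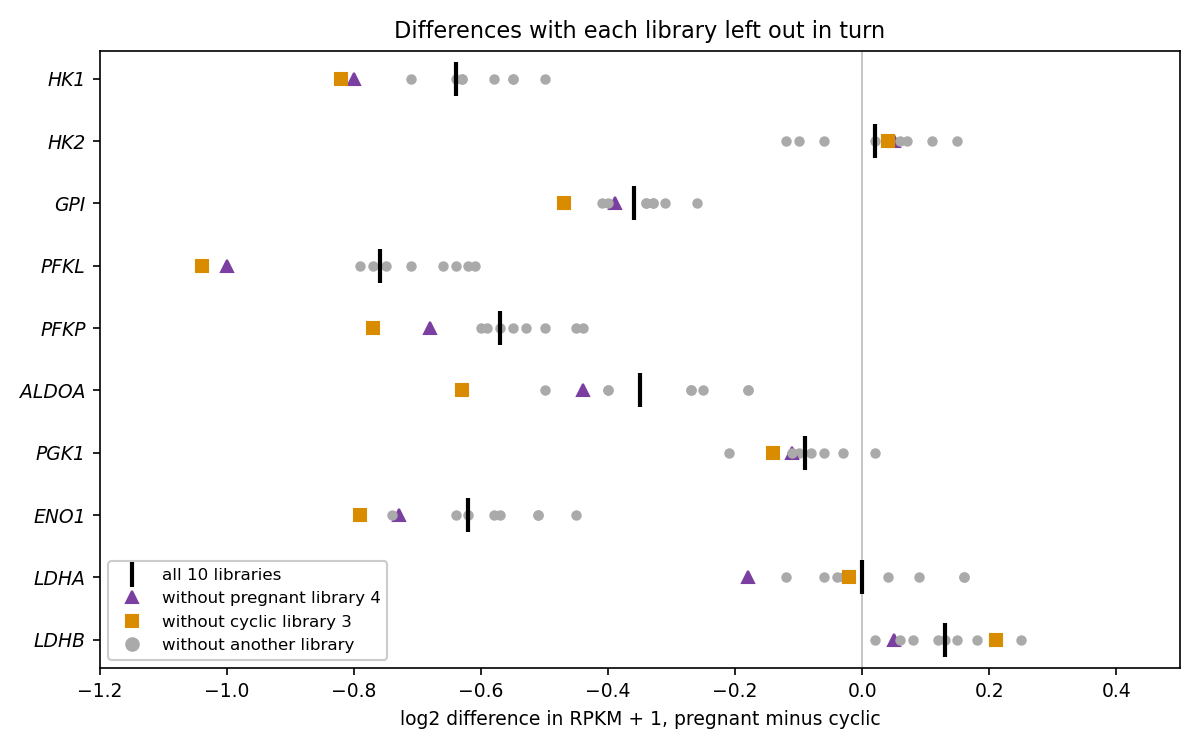
Log2 difference of each gene, pregnant minus cyclic, with all 10 libraries (black bar) and with each library left out in turn (symbols). Leaving out cyclic library 3 (square) gives -1.04 for PFKL, against -0.76 with all libraries, and -0.63 for ALDOA, against -0.35. The values of LDHA and HK2 lie on both sides of 0.

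Summed genes of the list of secretory epithelium markers lay lower in pregnant libraries, though the sum was not tested. How specific each listed gene is to secretory cells was not tested either. The 7 markers summed to 1850 to 4470 RPKM in pregnant libraries, against 5940 to 12100 RPKM in cyclic libraries, with no overlap. Most of that sum was OVGP1, the oviduct glycoprotein, at 2050 ± 1160 RPKM in pregnant and 5760 ± 2170 RPKM in cyclic heifers, and CLU, at 500 ± 108 and 1650 ± 694 RPKM (SD, n = 5 each). Taken singly, only 1 of the 7 markers, CLU, had no overlap, where 2.05% of all features lay lower without overlap. The groups of OVGP1 overlapped. At an unadjusted p under 0.05, 5 of the 7 were lower in pregnant heifers and 0 higher, where 11.9% of all features were lower and 15.7% higher. None passed the adjusted test. The log2 differences of these 5 were -1.78 for MUC1, -1.63 for CLU, -1.61 for OVGP1, -0.73 for KRT8 and -0.44 for KRT18. EPCAM differed by -0.14 and PAX8 by 0.02. The 7 ciliated markers summed to 355 to 429 RPKM in pregnant libraries and 366 to 477 RPKM in cyclic libraries. Single ciliated markers lay in both directions, and none passed the adjusted test. At an unadjusted p under 0.05, 4 were lower and 2 higher, where 11.9% of all features were lower and 15.7% higher. Among them were FOXJ1 at -0.83, DNAI1 at -0.53, CCDC39 at 0.96 and ENKUR at 0.85. The 7 stromal fibroblast markers summed to 22.4 to 44.3 RPKM in pregnant libraries, against 30.4 to 96.6 RPKM in cyclic libraries. The 7 leukocyte markers summed to 16.1 to 24.4 RPKM in pregnant and 17 to 26.2 RPKM in cyclic libraries. Smooth muscle (4 genes) and endothelial markers (5 genes) reached at most 22.2 and 18.9 RPKM in pregnant libraries, against 16.4 and 17.3 RPKM in cyclic libraries. Erythrocyte markers (4 genes) reached at most 3.69 RPKM in pregnant and 3.45 RPKM in cyclic libraries, and oocyte and embryo markers (5 genes) 15.3 and 13.6 RPKM. No marker was at 0 in all libraries. The part of these markers in the values of the glycolysis genes was not tested.

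RPKM is scaled to length, so levels were set in order between genes. The aligner, counter and annotation are not named, so differences in how well genes were counted could not be checked. In pregnant heifers the order of means was LDHB (109 RPKM), ALDOA (84.6), ENO1 (74.3), PGK1 (62.4), GPI (43.8), LDHA (32.3), PFKL (12.2), HK1 (10.8), HK2 (3.95) and PFKP (2.61). Only 2 pairs of neighbours in that order had separate ranges over the 5 pregnant libraries, PGK1 above GPI and HK1 above HK2. In cyclic heifers ENO1 (120 RPKM) and ALDOA (118) came before LDHB (102), with overlapping ranges, and PFKP (4.46) before HK2 (3.83). There the only neighbours with separate ranges were HK1 and PFKP. The recovered number of reads behind a value ran from 66, for PFKP in pregnant library 1, to 5082, for ENO1 in cyclic library 5.

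Genes for the same step were set against each other as shares of their summed RPKM, which do not depend on how libraries are scaled. LDHA made up 14.9%, 20.2%, 24.0%, 27.8% and 25.0% of LDHA plus LDHB in pregnant libraries, against 22.7%, 29.5%, 18.6%, 25.7% and 22.6% in cyclic libraries. The heart-type subunit thus held most of the lactate dehydrogenase transcript in all 10 libraries, and the LDHA share of the groups overlapped (difference -1.42 percentage points, two-sided exact permutation p = 0.635). HK1 made up 72.4 ± 10.9% of HK1 plus HK2 in pregnant and 81.3 ± 6.67% in cyclic heifers (SD, n = 5 each; difference -8.89 points, exact permutation p = 0.159). PFKL made up 81.0 ± 6.69% and 82.5 ± 1.41% of PFKL plus PFKP (difference -1.44 points, exact permutation p = 0.659). Adjusted over the 3 shares, p was 0.659, 0.476 and 0.659 for LDHA, HK1 and PFKL, where 0.00794 is the smallest p that 5 against 5 libraries allow.

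**Figure D5:**
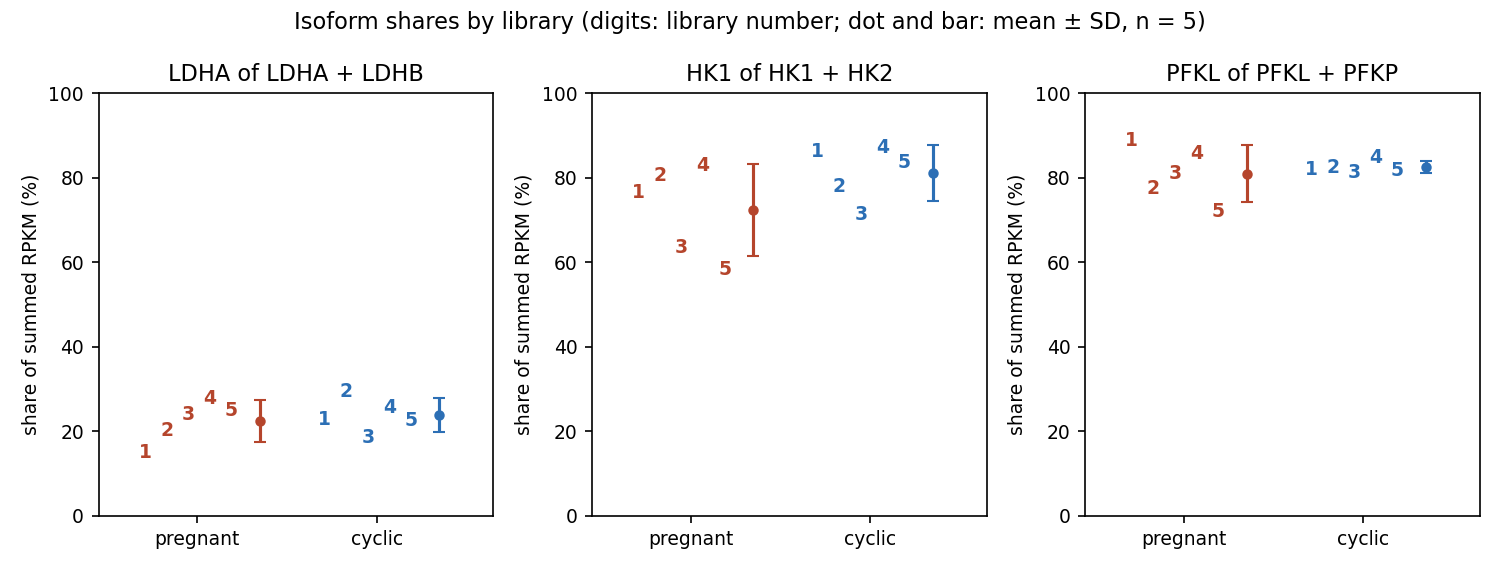
Share of LDHA in LDHA plus LDHB, of HK1 in HK1 plus HK2 and of PFKL in PFKL plus PFKP, in percent of summed RPKM, by library (digits) with mean ± SD of 5 libraries, pregnant left and cyclic right. LDHA stays between 14.9% and 29.5% in all libraries, and the PFKL share is more spread in pregnant (72.0% to 88.8%) than in cyclic libraries (81.3% to 84.9%).

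Other isoforms took sizeable shares of some steps. The genes named in this paragraph outside the 10 were chosen after their values were seen, and their shares are given without a test. Aldolase B, the form of liver and kidney, averaged 52.6 ± 12.8 RPKM in pregnant and 53.8 ± 5.79 RPKM in cyclic heifers, and ALDOA held 60.3 ± 10.3% and 64.4 ± 13% of aldolase transcript (SD, n = 5 each). ENO4, an enolase of the sperm flagellum in mouse, averaged 58.2 ± 12.4 and 53.0 ± 8.56 RPKM, so that ENO1 held 54.6 ± 10.6% of enolase transcript in pregnant and 66.4 ± 10.9% in cyclic heifers. GAPDHS, the sperm form of GAPDH in mouse, averaged 14.8 ± 1.55 and 12.3 ± 3.07 RPKM beside the 285 and 393 RPKM of GAPDH. LDHC and LDHD were low, with highest values of 1.51 and 3.05 RPKM over all libraries and means of 1.06 and 1.53 RPKM in pregnant and 0.882 and 1.79 RPKM in cyclic heifers. ENO2 stood at 4.32 RPKM in pregnant library 2, and its highest value in cyclic heifers was 1.26 RPKM.

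Pathways that feed or drain glycolysis held 0 genes past the adjusted test in each list. Among 5 tested glucose carriers, 1 was lower and 1 higher at an unadjusted p under 0.05. SLC2A1, the basal glucose carrier, averaged 18.9 ± 2.15 RPKM in pregnant and 25.4 ± 6.66 RPKM in cyclic heifers (SD, n = 5 each; log2 difference -0.38), while SLC2A12 averaged 42.4 ± 8.97 and 30.7 ± 5.5 RPKM (0.45). SLC2A8 differed by -0.38. Of the 5 enzymes that make or remove fructose 2,6-bisphosphate, the activator of phosphofructokinase, 0 were at an unadjusted p under 0.05. PFKFB3, the kinase-dominant form, averaged 35.7 ± 20.1 and 38.8 ± 9.6 RPKM (log2 difference -0.22), with PFKFB1 at -0.17 and TIGAR at 0.15.

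Among 5 tested carriers of lactate and pyruvate, MPC1 of the mitochondrial pyruvate carrier alone had an unadjusted p under 0.05, at 21.0 ± 2.41 RPKM in pregnant and 16 ± 1.78 RPKM in cyclic heifers (SD, n = 5 each; log2 difference 0.37; limma-trend adjusted p = 0.102). EMB and MPC2 differed by 0.34 and 0.11. SLC16A1, a monocarboxylate carrier, lay below the filter of a mean of 1 RPKM, at 0.689 ± 0.342 and 0.664 ± 0.142 RPKM. Of 12 genes of pyruvate dehydrogenase and its regulators, 1 was lower and 2 were higher at an unadjusted p under 0.05. DLD, its dihydrolipoamide dehydrogenase, stood at 28.8, 20.9, 22.6, 23.9 and 22.7 RPKM in pregnant libraries, against 12.6, 16.9, 18.5, 13.4 and 17.8 RPKM in cyclic libraries, with no overlap (log2 difference 0.56; limma-trend adjusted p = 0.0934). Such separation, with pregnant heifers higher, held for 4.91% of all features. PDK2, PDHX and PDHA1 differed by -0.42, 0.29 and 0.16.

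In the pentose phosphate pathway, which branches off at glucose 6-phosphate, 7 of 8 tested genes had a difference below 0 (median -0.24), and 3 were lower and 1 higher at an unadjusted p under 0.05. TKT, transketolase, averaged 25.3 ± 3.99 RPKM in pregnant and 40.3 ± 8.91 RPKM in cyclic heifers (SD, n = 5 each), with no overlap, where 2.05% of all features lay lower without overlap. RPE, an epimerase, averaged 9.94 ± 0.978 and 5.47 ± 1.27 RPKM. It also had no overlap but was higher in pregnant heifers, where 4.91% of all features lay higher without overlap. The log2 differences were -0.64 for TKT and 0.78 for RPE (limma-trend adjusted p = 0.0934 for both). Of 10 tested genes of glycogen metabolism, 2 were lower and 2 higher at an unadjusted p under 0.05, with PGM1 at -0.65 and PYGB at -0.51. Of 8 tested genes of gluconeogenesis and glycerol phosphate, 2 were lower at an unadjusted p under 0.05, GPD1L at -0.40 and PC at -0.42, while G6PC3, at -0.49, did not reach it. In the citric acid cycle 9 of 17 genes had a difference above 0, and 2 were higher at an unadjusted p under 0.05, SUCLA2 at 0.37 and MDH1 at 0.35. MDH2, at -0.55, did not reach it.

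Glycolytic genes are targets of the hypoxia factor HIF-1 in many tissues. HIF1A, which encodes its regulated subunit, averaged 193 ± 24.4 RPKM in pregnant and 128 ± 24.4 RPKM in cyclic heifers (SD, n = 5 each; log2 difference 0.60, SE 0.15; limma-trend adjusted p = 0.0934). BNIP3, a mitochondrial protein and known target, lay in the other direction, at 11.7 ± 1.04 and 20.1 ± 4.07 RPKM (log2 difference -0.72, limma-trend adjusted p = 0.0934). Its groups had no overlap, where 2.05% of all features lay lower without overlap. Of the 14 tested genes of this list, 1 was lower and 1 higher at an unadjusted p under 0.05, with a median of 0.01. NDRG1, also a target, differed by -0.35, while CA9, ANKRD37, VEGFA and P4HA1 of the same list differed by 0.14, 0.12, 0.02 and -0.02.

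The features most like the lactate dehydrogenase genes over the 10 libraries, after the mean of each group was removed, were GPX2 (r = 0.95), DUS2L (0.94), C11ORF16 (0.92), FKBP1A (0.92) and BHLHE40 (0.92) for LDHA. For LDHB they were CCDC92 (0.95), ENSBTAG00000037913 (0.94), NSFL1C (0.94), RNF113A (0.94) and ENSBTAG00000016999 (0.94). These are the highest of all tested features and share libraries and scaling. The lists for LDHA and LDHB had 0 features in common.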

How the data were processed

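RNA-seq was analysed in 10 libraries of oviduct epithelial cells, grouped by the treatment in the labels (pregnant, 5; cyclic, 5). Per the labels' protocols, libraries were made with a stranded kit after enrichment of mRNA on oligo-dT beads. The sources used here do not name the aligner, counter, build or annotation. The authors deposited 1 table whose header names groups and libraries but no unit. Its deposited values behave as RPKM, a unit inferred from the values: library totals of 9.71 to 26.1 M reads made all 13 mitochondrial genes whole reads, and 12791 of 12834 tested features resolved to whole reads at a length of up to 12000 bases (tolerance 0.02 reads plus rounding; 0.4% of 500 jittered features did). Over a length of 1 kb, 1 read gave 0.0383 to 0.103 RPKM, depending on the library.

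Features averaging at least 1 RPKM were tested with limma-trend (R 4.3.3, limma 3.58.1) after the log2(RPKM + 1) transform, Benjamini-Hochberg adjusted over all of them, checked on simulated data. Shares were compared with two-sided exact permutation tests over 252 assignments. Alternatives were a pseudocount of 0.1, no filter, a mean of at least 5 RPKM, array weights, a threshold of 0.1, each library left out, cyclic library 3 and pregnant library 4 left out together, median-ratio scaling, voom on recovered reads and a replicate block. The fit with array weights was made without the limma trend. Beside the 10 genes, the rule names GAPDH, TPI1, PKM, SLC2A1, SLC16A1, PDHA1, PFKFB3, HIF1A, up to 3 tested genes of smallest p per list, and the 5 features most correlated with LDHA and LDHB. Some genes under this rule are not reported here. Genes without a row of their own name were matched by the table's descriptions. The genes and lists were chosen with earlier results of these data known. Figures were drawn with matplotlib 3.10.9, and tables made with pandas 2.3.3 and numpy 2.4.6 under Python 3.11.15. No sequence was used here.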

Additional observations from a re-analysis of the deposited data

Results flagged for a closer look

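In 26 groups of 5 values (10 genes and 3 shares in each group of heifers), 3 values, in 2 libraries, stood apart from the rest of their group by a gap of more than 0.71 of the group's range, where chance gives about 1 in 20 groups. HK1 stood at 16.9 RPKM in pregnant library 4, against 7.95 to 10.4 RPKM in the other pregnant libraries. PFKL stood at 22.9 RPKM in the same library, against 7.35 to 11.6 RPKM in the others. PGK1 stood at 52.2 RPKM in pregnant library 2, against 63.7 to 65.9 RPKM in the others.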

How the results depend on the processing

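The count of called features, 0 of 12834, became 4789 with sample array weights, 3578 without cyclic library 3 and pregnant library 4 together and 1018 at a threshold of 0.1, and ran from 0 to 2213 when 1 library was left out (2213 without cyclic library 3, 56 without pregnant library 4). Of the 10 genes, 6 were called with array weights, 5 without both libraries and 0 to 5 when 1 library was left out (5 without cyclic library 3). At the other settings, a threshold of 0.1 included, 0 of the 10 were called. The limma-trend fit of all libraries had 3534 features (27.5%) at an unadjusted p under 0.05 and a smallest adjusted p of 0.0934. Voom on the recovered reads also called 0 features. The cause of these moves was not tested. HK1, GPI, PFKL, PFKP, ALDOA and ENO1 stayed below 0 at all settings run for them, over -0.98 to -0.50, -0.50 to -0.26, -1.28 to -0.61, -0.88 to -0.44, -0.83 to -0.18 and -0.90 to -0.45. LDHB ran from 0.02 to 0.25, and HK2 (-0.12 to 0.15), LDHA (-0.20 to 0.16) and PGK1 (-0.21 to 0.02) took both signs. The stricter filter gave no value for HK2 and PFKP. With 1 library left out, the difference in the LDHA share ran from -2.77 to 0.452 points (0.452 without pregnant library 1, 0.0106 without cyclic library 2). That in the HK1 share ran from -11.5 to -5.34 points (-5.34 without pregnant library 5). That in the PFKL share ran from -3.38 to 0.826 points (0.826 without pregnant library 5). No share passed at any setting. For the replicate block this was fixed in advance, because flipping the signs of 5 paired differences cannot give a p under 0.05. Without cyclic library 3 and pregnant library 4 together, 1 share alone could not pass after adjustment over the 3 shares. With the library number as a replicate block the counts stayed at 0 of 12834 features and 0 of 10 genes. With the block the limma-trend adjusted p was 0.0903 for HK1 and 0.129 to 0.15 for GPI, PFKL, PFKP and ENO1, lower than without it. For ALDOA it was 0.562, higher than without the block. Same-numbered libraries correlated at -0.336 to 0.284 and only library 4 correlated best with its own number. With so few libraries, these correlations cannot settle whether the numbers pair them. The median-ratio scaling moved the median of all features to -0.008, against 0.008. With 5 libraries a group, the printed intervals give the precision of each difference.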
